A study of Mus musculus with 6 samples.

Results

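Serotonin receptors are the proteins through which cells sense serotonin, and 10 of their genes were followed in RNA of the mouse hippocampus: Htr1a, Htr1b, Htr1d, Htr2a, Htr2c, Htr3a, Htr4, Htr5a, Htr5b and Htr7. They were chosen by symbol, and each symbol matched 1 of the 55421 genes in the table of counts. The RNA came from 6 male C57BL/6N mice aged 8 to 10 weeks, 1 library from each. By the labels, 3 of these mice received substance P (SP; 10 µM, 100 µL) under the skin for 14 days, and 3 received an equal volume of saline on the same schedule (vehicle). SP is a neuropeptide released by sensory nerve endings and by neurons of the brain. Total counts were 23105903, 24560605 and 27605935 for vehicle-labelled mice and 23608419, 24284625 and 22349964 for SP-labelled mice. Expression is given as counts-per-million (CPM) of the normalized library size, and all directions are those of SP-labelled mice relative to vehicle-labelled mice. How the labels relate to the directions in the study's paper is in doubt. The study's paper lists Htr1b as upregulated and the oligodendrocyte genes Mag and Mbp as downregulated in SP mice. By label, the fitted value of each had the other sign here. No gene measured here shows whether the labels or the paper's comparison run the other way. Every direction here rests on the labels as given and would turn if they were exchanged. At this depth a count of 0 allows up to 0.109 to 0.135 CPM, a limit of 3 counts per library that covers counting error only.

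The hippocampus receives serotonin from axons of the raphe nuclei, whose cell bodies lie in the brainstem. Htr3a encodes a subunit of a cation channel that serotonin opens directly, and all the other genes followed encode receptors that act through G proteins. Htr1 and Htr5 receptors are assigned to Gi/o, which lowers cAMP and opens potassium channels; Htr2 receptors act through Gq/11 and phospholipase C; and Htr4 and Htr7 raise cAMP through Gs.

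The makeup of the libraries was checked by marker genes. Markers of dentate granule cells, CA1 and CA3 were present in all 6 libraries, with Prox1, the granule cell marker with the highest mean, at 75.5 to 129 CPM. Of 6 markers of raphe neurons, the transcription factor Fev had 1 count over all libraries, the serotonin transporter Slc6a4 had 4, 3 and 3 counts in vehicle-labelled mice and 0, 0 and 1 in SP-labelled mice, and Gata3 had at most 5 counts. The other markers were above the limit of 3 counts in every library: Tph2 had 17 to 27 counts, Slc18a2 had 38 to 97, and Gata2, the most abundant on average, had 59 to 107. Library SP 1 stood apart in 15 markers of choroid plexus epithelium, a vascular tissue that projects into the ventricles beside the hippocampus. Their summed expression was 4213, 4074 and 5125 CPM in vehicle-labelled mice and 192, 3005 and 4227 CPM in SP 1, SP 2 and SP 3. Library SP 2 stood apart in the synthesis genes Tph1 and Ddc, described below, and in 6 markers of PV and SST interneurons. The sum of these 6 was 307, 305 and 309 CPM in vehicle-labelled mice and 313, 231 and 314 CPM in SP 1, SP 2 and SP 3, and Sst, the most abundant on average, had 139, 136 and 138 CPM against 139.9, 88.9 and 142 CPM. SP 2 was also lowest in the sum of neocortical markers, at 199 CPM against 216 to 335 CPM in the other libraries. It was highest in the sums of oligodendrocyte, granule cell and CA3 markers, at 6747, 512 and 300 CPM. Of the 10 receptor genes, 5 were also lowest in SP 2, namely Htr1a, Htr1b, Htr2a, Htr5a and Htr7. The part of these cell types in that was not tested. In such bulk samples, fewer cells of a type and less RNA per cell cannot be told apart.

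Between genes, levels were compared as CPM per kilobase of exon, because longer transcripts give more counts. In vehicle-labelled mice Htr2c was highest, at 10.2 ± 1.00 CPM per kilobase (SD, n = 3 mice), and Htr1a was next at 8.26 ± 0.538. Htr3a followed at 4.74 ± 0.306 and Htr7 at 3.41 ± 0.611 CPM per kilobase. The genes Htr5a, Htr2a, Htr1b, Htr5b and Htr4 lay close together, with mean levels from 2.56 down to 2.02 CPM per kilobase. Htr1d was lowest, at 0.128 ± 0.0222, which puts 80.1-fold between the ends of the order. Of the 9 pairs of neighbours in this order, 3 had ranges over the vehicle-labelled mice that overlap: Htr5a with Htr2a, Htr2a with Htr1b, and Htr1b with Htr5b. In SP-labelled mice, Htr1a was highest, at 8.08 ± 0.935 CPM per kilobase, and Htr2c was second at 7.30 ± 2.60, while Htr3a, Htr7 and Htr1d had the same ranks as in vehicle-labelled mice. Htr2c held 26.7% of the summed level of the 10 genes under the vehicle label and 21.6% under the SP label. These values for Htr2c depend on the length taken for it, since its exons together span 9328 bases and its longest transcript 4883. By the longest transcript Htr2c was first under both labels, at 19.6 CPM per kilobase in vehicle-labelled mice and 13.9 in SP-labelled mice, with Htr1a next. Its share was then 40.7% and 34.1%, and the ends of the order lay 139-fold apart in vehicle-labelled mice.

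**Figure D1:**
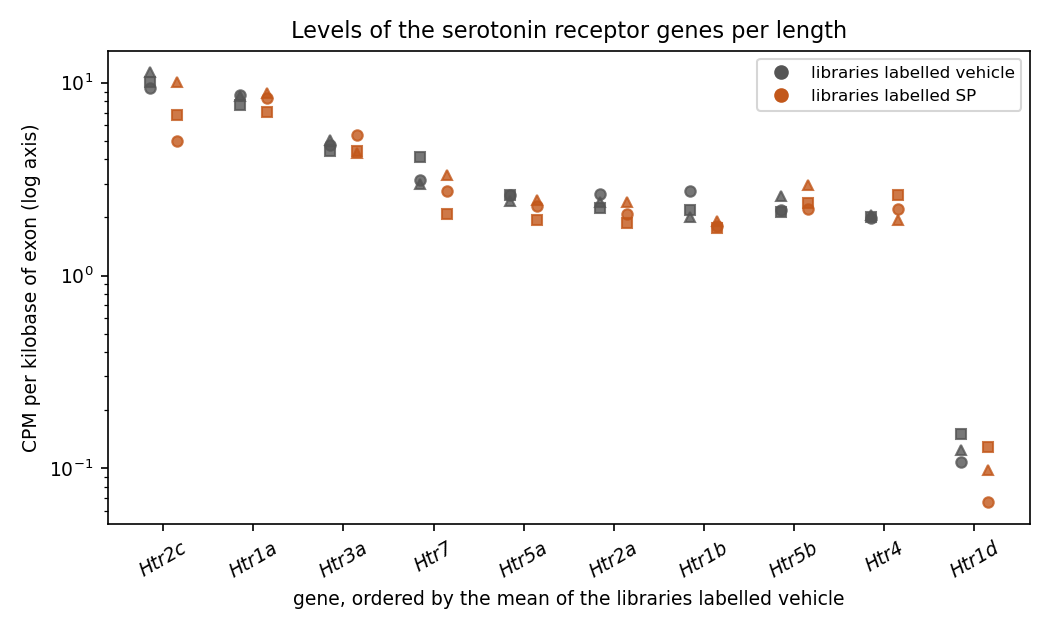
Level of each serotonin receptor gene in CPM per kilobase of exon on a log axis, with 1 point per library (circle, square and triangle for replicates 1, 2 and 3). Htr2c and Htr1a are the highest in 5 libraries, Htr3a at 5.38 lies above Htr2c at 4.98 in SP 1, and Htr1d is lowest in all 6.

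Most of the tested receptor genes had lower fitted values in SP-labelled mice, and Htr2c and Htr1b had the lowest p among them, but none passed the threshold set over all genes. Of the 10 genes, 9 had enough counts to be tested and Htr1d did not. With edgeR's quasi-likelihood test, 0 of these 9 genes were called at FDR < 0.1 and |log2FC| > 0.3, where 0.0293% of all 17069 tested genes were called. An unadjusted p under 0.05 was found for 2 of the 9, Htr2c and Htr1b, both lower, where the share of all tested genes was 5.59% lower and 4.48% higher. DESeq2 called 0 of the 9 with the replicate block and 0 without it, where it called 0.211% and 0.779% of all tested genes, each with 1 gene at an unadjusted p under 0.05, Htr2c with the block and Htr1b without it, beside 4.13% and 8.10% of all tested genes. Fitted log2 fold changes were negative for 7 genes and positive for 2, and their median was -0.20, beside 0.0015 over all tested genes. In 1 of the 9 genes, Htr1b, the 3 mice of each label did not overlap and SP was lower, and in 0 was SP higher; the shares over all tested genes were 9.03% and 9.19%. Without replicate 2 the median of the 9 genes was -0.024.

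**Figure D2:**
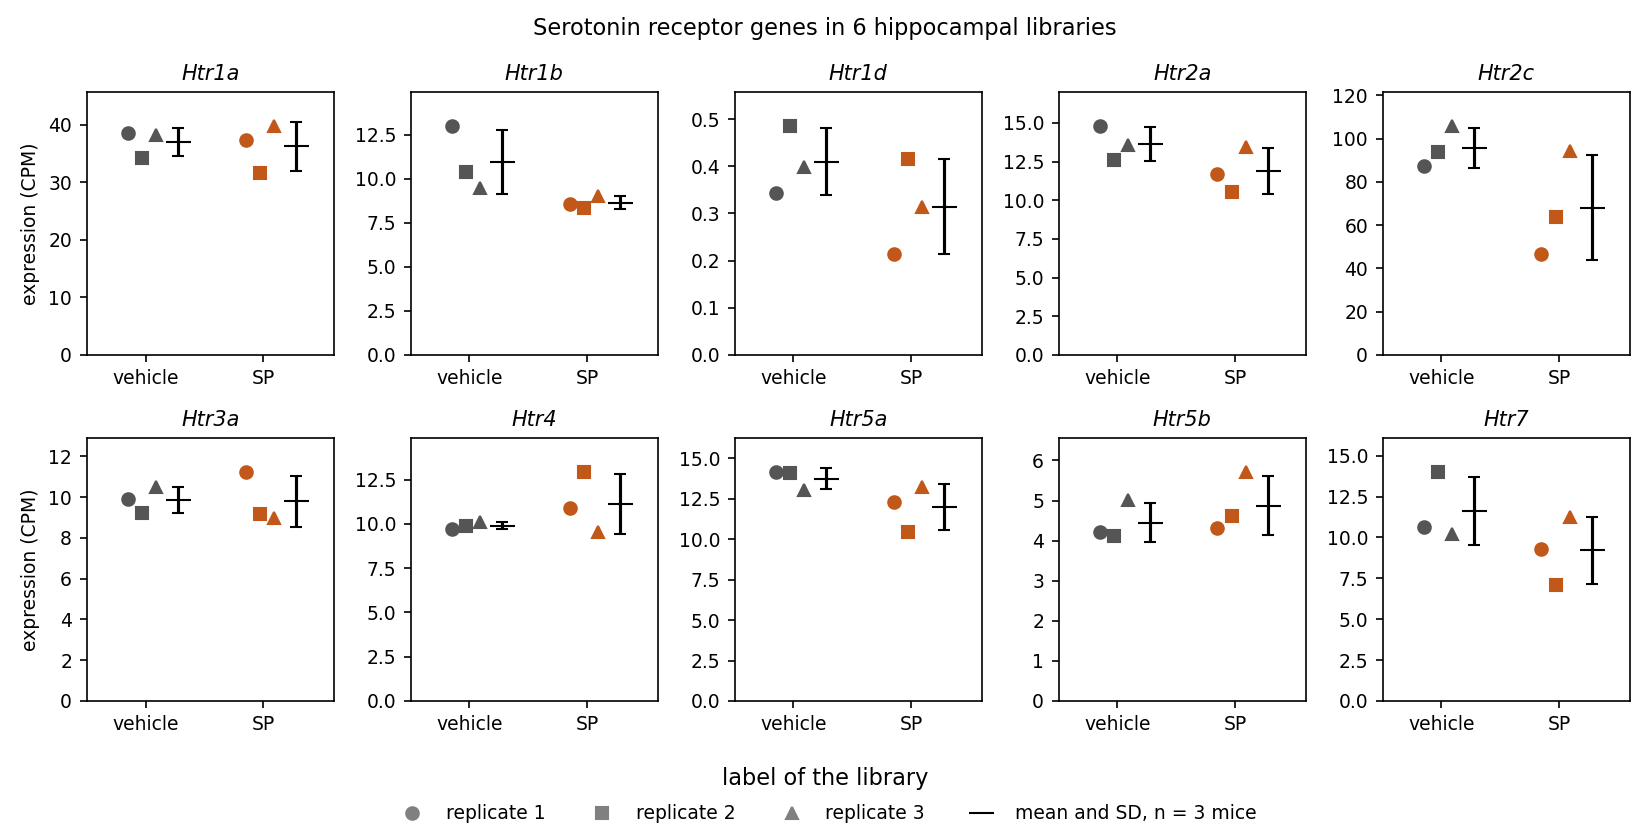
Expression of the 10 genes in CPM for each of the 6 libraries, with the mean and SD of 3 mice beside each group; each axis starts at 0. The groups are separate in Htr1b, and in Htr2c the SP libraries reach from 46.4 to 94.2 CPM.

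**Figure D3:**
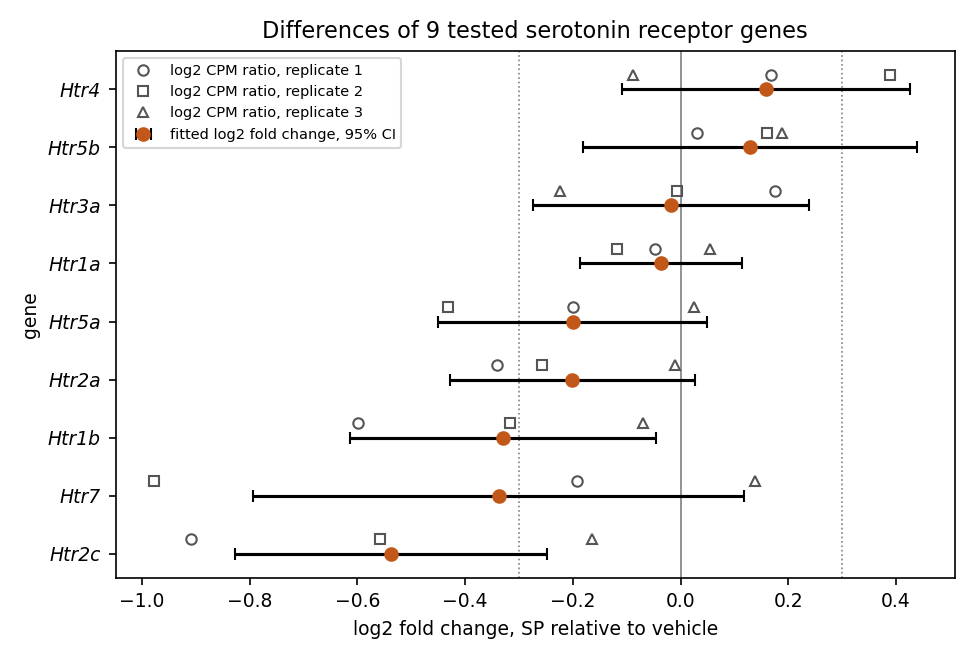
Fitted log2 fold change of the 9 tested genes with its 95% confidence interval, and the log2 CPM ratio within each replicate number as open symbols; dotted lines mark the size needed for a call. The intervals of Htr2c and Htr1b lie below 0, and those of the other 7 genes include 0.

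The promoters of Htr1b and Htr2c are shown because these are the 2 genes with an unadjusted p under 0.05 that were lower in every replicate pair. A pair here means 2 separate mice, 1 of each label, that share only a replicate number. Promoter sequences from RefSeq, on build GRCm38.p6, cover 250 bases before and 50 bases after a gene's start and were used for 7 of the 10 genes; those of Htr3a, Htr4 and Htr5b were not. That of Htr1b is on the minus strand at chr9:81633783-81634082, and that of Htr2c on the plus strand at chrX:146962263-146962562. Both are printed 5′ to 3′ along the gene, with matches to CCAAT or its reverse complement ATTGG in capitals.
Htr1b: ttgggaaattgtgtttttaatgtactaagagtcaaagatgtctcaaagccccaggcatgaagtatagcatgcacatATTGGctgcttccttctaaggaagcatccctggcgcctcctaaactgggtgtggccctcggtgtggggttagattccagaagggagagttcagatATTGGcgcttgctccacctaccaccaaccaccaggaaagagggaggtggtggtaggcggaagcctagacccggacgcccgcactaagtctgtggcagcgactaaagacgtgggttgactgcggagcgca
Htr2c: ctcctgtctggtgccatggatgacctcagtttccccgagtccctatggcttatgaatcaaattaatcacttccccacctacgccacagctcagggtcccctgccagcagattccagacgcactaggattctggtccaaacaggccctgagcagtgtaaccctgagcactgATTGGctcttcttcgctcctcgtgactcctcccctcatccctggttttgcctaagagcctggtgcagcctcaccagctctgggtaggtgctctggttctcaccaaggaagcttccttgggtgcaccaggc
The Htr1b promoter holds 2 matches and the Htr2c promoter 1, all in the ATTGG orientation, and 37.4% of 32851 promoters hold at least 1 on either strand. Neither promoter holds, on either strand, the TATA box TATAAA found in 13.6% of promoters, the GC box GGGCGG found in 35.7%, the cAMP response element TGACGTCA found in 1.79%, the OTX core TAATCC found in 7.06% or the E-box CACGTG found in 7.15%. The motifs do not overlap one another in these windows. GC content was 53.3% in the Htr1b window and 56.3% in the Htr2c window, beside a median of 52.7%, and CpG dinucleotides numbered 11 and 5, beside a median of 7.

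Among the Gi/o-coupled receptors, Htr1a (ENSMUSG00000021721, chromosome 13 of GRCm38 from 105443639 to 105448122, plus strand) has 1 exon and encodes a receptor that hyperpolarizes pyramidal and granule cells. Its expression was 38.6, 34.3 and 38.2 CPM in vehicle-labelled mice and 37.4, 31.6 and 39.7 CPM in SP-labelled mice. The groups overlapped, and replicate 2 was the lowest mouse under both labels. The log2 fold change was -0.04, with a standard error (SE) of 0.0643, a 95% confidence interval from -0.19 to 0.11 and edgeR's FDR at 0.885, and it was 0.0040 without replicate 2. This was the narrowest interval of the 9 tested genes.

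Htr1b (ENSMUSG00000049511, chromosome 9 from 81628291 to 81633828, minus strand) encodes a receptor best known on axon terminals, where it limits release of serotonin and other transmitters. It had 302, 257 and 261 counts in vehicle-labelled mice and 201 in each SP-labelled mouse, that is 13.0, 10.4 and 9.47 CPM against 8.56, 8.34 and 9.03 CPM. The groups did not overlap, but the gap between vehicle 3 and SP 3 was small, and vehicle 1 lay above all others. Its log2 fold change was -0.33 (SE 0.122, 95% confidence interval -0.61 to -0.05, FDR 0.440 from edgeR), and 3 of 3 replicate pairs were lower. That direction depends on the labels as given. The log2 fold change was -0.19 without replicate 1. The SD of the vehicle-labelled mice was 16.6% of their mean, where counting error alone gives 6.05%, and that of the SP-labelled mice was 4.03%, below the 7.05% of counting error. An antisense gene, D430036J16Rik, overlaps Htr1b on the other strand and reached at most 1.78 CPM. Transcripts of other genes hold 1.11% of the 31-base stretches of Htr1b in the same orientation. The reverse complement was not compared. The genes whose pattern over the 6 libraries was most like that of Htr1b, by the root mean square difference of centred log2 CPM among 14917 genes, were Blvra (0.0474), Klf6 (0.0586) and C130023A14Rik (0.0590).

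Htr1d (ENSMUSG00000070687, chromosome 4 from 136423524 to 136444398, plus strand), a terminal receptor close to Htr1b in function, was measured at the edge of detection. It had 8, 12 and 11 counts in vehicle-labelled mice and 5, 10 and 7 in SP-labelled mice, or 0.344, 0.485 and 0.399 CPM against 0.213, 0.415 and 0.314 CPM. Each SP-labelled mouse was below the vehicle-labelled mouse of the same replicate number, and the groups overlapped. Counting error alone amounts to 31.1% and 36.9% of these means, above the SDs of 17.4% and 32.2%. With no filter on low counts the log2 fold change was -0.39, with a 95% confidence interval from -1.44 to 0.66 and an FDR of 0.905 from edgeR, so that a difference of the size seen in Htr2c was not detectable at this depth.

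The Htr5 genes had fitted differences of opposite sign, and neither passed the test. Htr5a (ENSMUSG00000039106, chromosome 5 from 27842149 to 27855088, plus strand) had 14.1, 14.1 and 13.0 CPM in vehicle-labelled mice and 12.3, 10.5 and 13.2 CPM in SP-labelled mice. SP 1 and SP 2 lay below every vehicle-labelled mouse, and SP 3 lay within the vehicle range. Its log2 fold change was -0.20 (SE 0.107, FDR 0.572 from edgeR), and it was -0.087 without replicate 2 and -0.32, at an unadjusted p under 0.05, without replicate 3. Htr5b (ENSMUSG00000050534, chromosome 1 from 121509842 to 121528465, minus strand), a receptor gene that is intact in rodents but disrupted in humans, had 4.21, 4.12 and 5.01 CPM against 4.30, 4.61 and 5.70 CPM. It was higher in 3 of 3 replicate pairs, the groups overlapped, and the log2 fold change was 0.13 (SE 0.132, FDR 0.788 from edgeR).

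Of the Gq/11-coupled receptors, Htr2a (ENSMUSG00000034997, chromosome 14 from 74640840 to 74709494, plus strand) depolarizes interneurons and cortical-type pyramidal cells. It had 14.8, 12.6 and 13.6 CPM in vehicle-labelled mice and 11.7, 10.5 and 13.5 CPM in SP-labelled mice. SP 1 and SP 2 lay below every vehicle-labelled mouse and SP 3 did not. For Htr2a the log2 fold change was -0.20 (SE 0.0973, 95% confidence interval -0.43 to 0.03, FDR 0.539 from edgeR), with 3 of 3 pairs lower, and it was -0.13 without replicate 1 and -0.30, at an unadjusted p under 0.05, without replicate 3.

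Htr2c (ENSMUSG00000041380, chromosome X from 146962513 to 147197277, plus strand) encodes the receptor whose RNA is edited by adenosine deaminases, and it is known for dense expression in choroid plexus epithelium besides neurons. It had 2030, 2318 and 2912 counts in vehicle-labelled mice and 1090, 1532 and 2099 in SP-labelled mice. In CPM these were 87.2, 93.7 and 106 against 46.4, 63.6 and 94.2. SP 1 and SP 2 were below every vehicle-labelled mouse, whereas SP 3 lay between vehicle 2 and vehicle 3, so that the groups overlapped. The log2 fold change was -0.54 (SE 0.124, 95% confidence interval -0.83 to -0.25, FDR 0.335 from edgeR), a 1.40-fold higher mean under the vehicle label, with 3 of 3 pairs lower. The log2 CPM ratio within replicates 1, 2 and 3 was -0.91, -0.56 and -0.16. The SP-labelled mice differed among themselves by an SD of 35.6% of their mean, where counting error gives 2.52%.

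Whether Htr2c was called depended on the processing. Its FDR was 0.00279 from edgeR with no filter on low counts and 0.0671 without replicate 3, and 0.0135 from DESeq2 with the block and no filter, a fit chosen after seeing the data. It was 0.504 from DESeq2 with the block and the filter and 0.693 without the block. Over the 10 alternatives the FDR ranged from 0.00279 to 0.755, and the log2 fold change from -0.73 without replicate 3 to -0.36 without replicate 1. Of its 31-base stretches, 0 are found in the same orientation in a transcript of another gene. The 8 small RNA genes that lie within Htr2c had 0 counts.

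Choroid plexus markers were lowest in the same library as Htr2c. All 15 markers were tested, all 15 had negative log2 fold changes with a median of -1.32, and 6 had an unadjusted p under 0.05, but 0 were called by edgeR or by DESeq2 with or without the block. Their most abundant gene, the thyroid hormone carrier Ttr, had 3492, 3476 and 4299.7 CPM in vehicle-labelled mice and 125, 2542 and 3614 CPM in SP 1, SP 2 and SP 3, and none of the 15 was at 0 in every library. In SP 1 the markers were far below all other libraries and Htr2c had 46.4 CPM, and in SP 2 their sum and Htr2c lay below the vehicle range by smaller margins, though Otx2 and Sostdc1, at 15.5 and 21.3 CPM, lay within it. Without replicate 1, which holds SP 1, the value for Htr2c was -0.36, at an unadjusted p under 0.05 but an FDR of 0.755 from edgeR. The part of choroid plexus RNA in the Htr2c difference was not tested. The genes most like Htr2c over the 6 libraries were Cdr2, at a root mean square difference of 0.0550, Col18a1 at 0.0567 and Sfrp1 at 0.0667. Cdr2 had 16.5, 16.3 and 18.6 CPM against 8.95, 11.8 and 17.0 CPM, and so shared the order of the SP-labelled mice with Htr2c.

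**Figure D4:**
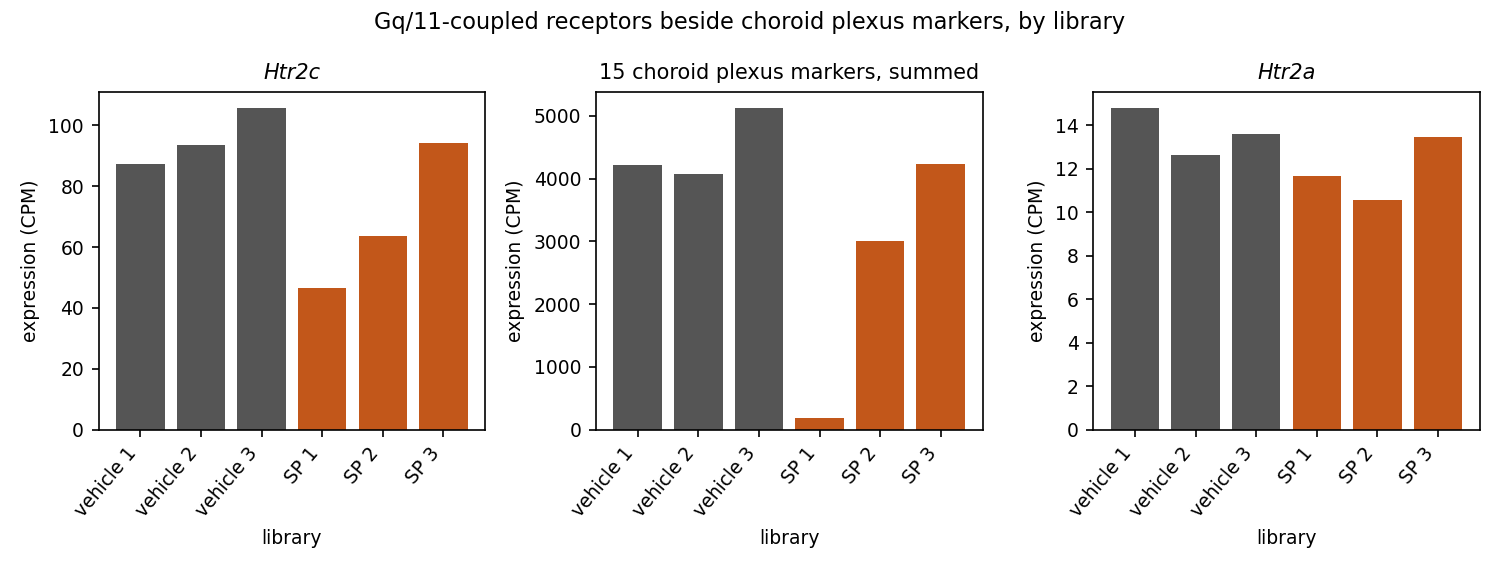
Expression in CPM of Htr2c, of 15 choroid plexus markers summed and of Htr2a, with 1 bar per library and each axis starting at 0. SP 1 has 192 CPM of the markers where the other 5 libraries have 3005 to 5125 CPM, and SP 1 is also lowest in Htr2c but not in Htr2a.

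Htr3a (ENSMUSG00000032269, chromosome 9 from 48899213 to 48911099, minus strand) encodes the channel subunit and marks interneurons that arise in the caudal ganglionic eminence. It had 9.93, 9.21 and 10.5 CPM in vehicle-labelled mice and 11.2, 9.17 and 8.98 CPM in SP-labelled mice. SP 1 was the highest of all mice and SP 3 the lowest. The log2 fold change was -0.02 (SE 0.109, 95% confidence interval -0.27 to 0.24, FDR 0.970 from edgeR), and it was 0.08 without replicate 3. Among 10 markers of the interneurons that carry Htr3a, 6 had negative and 4 positive log2 fold changes, with a median of -0.05, 1 at an unadjusted p under 0.05 in each direction and 0 called. Their summed expression ranged from 506 to 530 CPM. Within this list the peptide gene Vip had a log2 fold change of -0.34 and Npas1 one of 0.23, the extremes. Vip was the lower gene at that threshold, but Npas1 was not the higher one. That was Cck, with 178, 175 and 169 CPM in vehicle-labelled mice and 189, 196 and 189 CPM in SP-labelled mice (log2 fold change 0.13, FDR 0.441 from edgeR).

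The Gs-coupled receptors Htr4 and Htr7, which promote excitability through cAMP, had fitted values of opposite sign, and neither passed the test. Htr4 (ENSMUSG00000026322, chromosome 18 from 62324204 to 62496577, plus strand) had 9.71, 9.86 and 10.1 CPM in vehicle-labelled mice and 10.9, 12.9 and 9.52 CPM in SP-labelled mice. SP 1 and SP 2 were above every vehicle-labelled mouse and SP 3 was below them all. Its log2 fold change was 0.16 (SE 0.114, FDR 0.682 from edgeR), and it was 0.04 without replicate 2 and 0.28 without replicate 3. Markers of dentate granule cells were likewise highest in SP 2, with a summed expression of 328, 350 and 350.5 CPM in vehicle-labelled mice and 429, 512 and 310 CPM in SP-labelled mice, and their part in the Htr4 values was not tested.

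Htr7 (ENSMUSG00000024798, chromosome 19 from 35958734 to 36057507, minus strand) had the largest SD relative to its mean among the 10 genes in vehicle-labelled mice, 17.9%, close to the 17.4% of Htr1d. It had 10.6, 14.0 and 10.2 CPM in vehicle-labelled mice and 9.29, 7.10 and 11.2 CPM in SP-labelled mice. The highest mouse, vehicle 2, and the lowest, SP 2, share a replicate number, and SP 3 lay above vehicle 1 and vehicle 3. The log2 fold change was -0.34 (SE 0.195, 95% confidence interval -0.79 to 0.12, FDR 0.600 from edgeR). It was -0.024 without replicate 2 and -0.59, at an unadjusted p under 0.05, without replicate 3. With no filter on low counts it was -0.34, also at an unadjusted p under 0.05 from edgeR. Htr7 is known from thalamus as well as from CA3, and 6 thalamic markers had a summed expression of 101, 128 and 108 CPM in vehicle-labelled mice and 114, 121 and 105 CPM in SP-labelled mice. This sum was highest in vehicle 2, as Htr7 was, but SP 2, the lowest in Htr7, was next in it. The 2 with the highest means differed in the sign of their fitted values. Rora had 38.2, 44.2 and 39.7 CPM against 37.4, 34.8 and 32.6 CPM (log2 fold change -0.22), and Prkcd had 25.8, 45.2 and 27.0 CPM against 32.2, 40.6 and 38.5 CPM (0.22). Of the 6 markers 3 were negative and 3 positive, with a median of 0.03, 1 lower and 0 higher at an unadjusted p under 0.05 and 0 called by edgeR or DESeq2, and their part in the Htr7 values was not tested.

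Levels were also summed by coupling, per kilobase of all exons. Gi/o-coupled receptors had 15.6 ± 0.770 CPM per kilobase in vehicle-labelled mice and 14.8 ± 1.51 in SP-labelled mice, and the Gs-coupled pair had 5.43 ± 0.601 and 4.97 ± 0.262 (SD, n = 3 mice each). The Gq/11 pair, made up mainly of Htr2c, had 12.0, 12.3 and 13.7 CPM per kilobase against 7.06, 8.70 and 12.5. In that pair SP 1 and SP 2 lay below the vehicle range and SP 3 lay inside it. By the longest transcript, a length chosen for these sums after seeing the data, the order of the leading classes turned. The Gq/11 pair then had 20.5, 21.4 and 24.1 CPM per kilobase in vehicle-labelled mice and 11.6, 14.9 and 21.7 in SP-labelled mice, where Gi/o had 16.3, 14.8 and 15.7 against 14.7, 13.3 and 16.3, so that Gq/11 was above Gi/o in every library but SP 1.

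Of 4 other serotonin receptor genes, Htr6 and Htr1f were tested and Htr2b and Htr3b were at 3 counts or fewer in every library. Htr6, a Gs-coupled receptor, had 3.48, 3.96 and 3.23 CPM in vehicle-labelled mice and 4.73, 4.11 and 3.77 CPM in SP-labelled mice, with overlapping groups and a value of 0.24 for the log2 fold change (SE 0.154, FDR 0.642 from edgeR). Htr1f had 1.24 to 1.66 CPM over the libraries and a log2 fold change of -0.04 (FDR 0.967 from edgeR).

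Among 10 genes of serotonin synthesis, transport and breakdown, 8 were tested, 5 had negative and 3 positive log2 fold changes, 1 had an unadjusted p under 0.05 in each direction, and 0 were called by edgeR or DESeq2. The higher one was Tph1, the tryptophan hydroxylase of pineal gland and gut. It had 8, 3 and 5 counts in vehicle-labelled mice and 14, 704 and 9 in SP 1, SP 2 and SP 3, so that its log2 fold change of 4.97 (SE 1.09, FDR 0.313 from edgeR) rested on SP 2. Ddc, which completes serotonin synthesis, was also highest in SP 2, with 10.8 CPM where the other libraries had at most 5.50 CPM. The lower gene was Maob, a monoamine oxidase, with 25.2, 26.6 and 27.5 CPM in vehicle-labelled mice and 19.2, 23.6 and 25.7 CPM in SP-labelled mice and a log2 fold change of -0.22 (SE 0.0800, FDR 0.439 from edgeR). Maoa, which prefers serotonin as substrate, ranged from 27.4 to 30.9 CPM, with a log2 fold change of -0.09. The low-affinity transporter Slc29a4 had -0.10, and the vesicular transporter Slc18a2 had 0.34, neither past an unadjusted p of 0.05. Tph2, the hydroxylase of brain serotonin neurons, stayed between 0.706 and 0.980 CPM.

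The signaling genes behind the receptors were compared by list. Of 11 genes of Gi/o coupling, 3 had negative and 8 positive log2 fold changes, with a median of 0.04. Rgs4, a regulator that shortens Gi/o signals, had 138, 136 and 133 CPM in vehicle-labelled mice and 120, 113 and 124 CPM in SP-labelled mice (log2 fold change -0.19, FDR 0.384 from edgeR). Rgs14, a regulator enriched in CA2, had 88.1, 81.7 and 78.8 CPM against 98.0, 104 and 93.1 CPM (0.25, FDR 0.335 from edgeR). In both the groups did not overlap. Of 10 genes of Gq/11 coupling, 3 were negative and 7 positive, with a median of 0.06, from Plcb3 at -0.05 with the lowest p among the former to Dgkz, a kinase that removes diacylglycerol, at 0.24 (FDR 0.416 from edgeR) among the latter. Of 18 genes of Gs coupling, 9 were negative and 9 positive, with a median of -0.0013. At an unadjusted p under 0.05 from edgeR 4 were lower and 1 higher, beside 5.59% and 4.48% of all tested genes. The groups did not overlap in 4 with SP lower and 0 with SP higher, beside 9.03% and 9.19% of all tested genes. Prkar2b, a regulatory subunit of protein kinase A, had 41.6, 40.7 and 40.1 CPM in vehicle-labelled mice and 34.4, 30.3 and 34.0 CPM in SP-labelled mice (-0.31, FDR 0.308 from edgeR), while Adcy9, an adenylyl cyclase, had 0.20 (FDR 0.493 from edgeR). Of 11 receptor partners and editing enzymes, 5 were negative and 6 positive, with a median of 0.0055, and the receptor kinase Grk3 had -0.14 and the beta-arrestin Arrb2 0.14. Over these 4 lists edgeR called 0 genes, with 6 lower and 3 higher at an unadjusted p under 0.05, and DESeq2 called 0 with the block and 1, Prkar2b, without it.

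**Figure D5:**
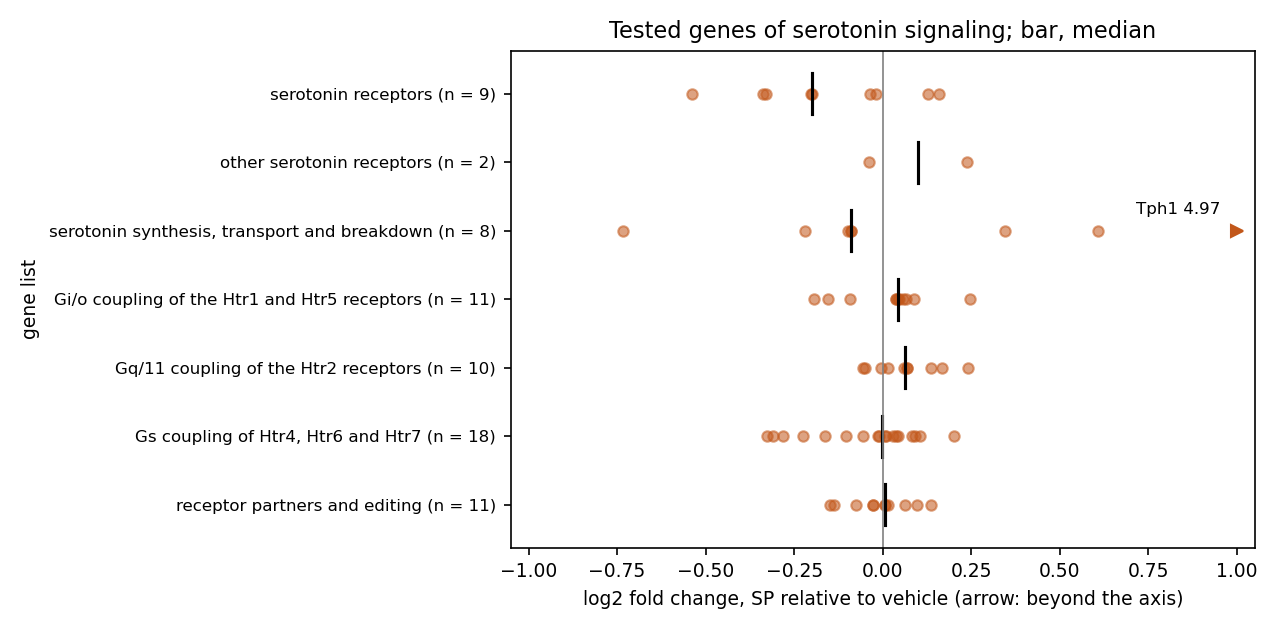
Log2 fold change of each tested gene, SP-labelled relative to vehicle-labelled, in the serotonin receptor list and 6 lists of related genes, with n genes tested and the median as a bar. The receptor list has the lowest median, -0.20, and Tph1 at 4.97 lies beyond the axis.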

How the data were processed

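Hippocampal RNA of 6 mice was analysed, each a separate animal. The deposited values are estimated counts per gene, and some of them were not whole. The authors' methods and processing notes name TrimGalore for trimming, STAR for alignment to GRCm38 and Salmon for quantification. Columns headed as controls were taken as the vehicle samples of the same number. Counts were rounded and tested in R 4.3.3 with edgeR 4.0.16 (TMM, glmQLFit, glmQLFTest), with the replicate number, called a batch in the labels, as a block because the study's methods adjust for replicates, and Benjamini-Hochberg FDR was taken over the 17069 genes that passed filterByExpr (minimum count 10, minimum total 15). Calls required FDR < 0.1 and |log2FC| > 0.3. Across genes, which are not independent replicates, Pearson's r between the deviations of same-numbered mice from their group means was 0.0140, -0.0656 and 0.0734. Exon lengths, positions and shared sequence came from GENCODE M21 on GRCm38, since the annotation release of the counts was not given in the sources used here. Whether counting used strand was not given either. Confidence intervals are 95% and use the test's degrees of freedom.

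Alternatives left out the block, the filter or each replicate number, used relative log expression or DESeq2 1.42.0 with or without the block, and for levels took the longest transcript. DESeq2 without the filter, and the longest transcript in SP-labelled mice and in sums by coupling, were chosen after seeing the data. The scripts' fits were tested on simulated data. The members and lists were chosen with earlier results of these data known. Named genes are the 10 receptor genes, the gene with the lowest p in each direction of each pathway list with 3 or more tested genes, genes of the other receptor and synthesis lists with at least 10 counts in every library, and the 3 genes most like Htr1b or Htr2c among those of at least 1 CPM, by log2 CPM with a prior count of 2. Prox1, Fev, Slc6a4, Gata2, Gata3, Ttr, Htr2b, Htr3b, Otx2, Sostdc1, Sst, Vip, Npas1, Cck, Rora, Prkcd, Mbp, Sulf1, Chrna3, Chrnb4, Nwd2, Gpr151, Tac2, Cux2 and Mag, all from the lists, and D430036J16Rik, which overlaps Htr1b, were singled out after their values were seen.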

Additional observations from a re-analysis of the deposited data

How the results depend on the processing

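Every tested receptor gene kept its direction with no replicate block, no filter, relative log expression and each DESeq2 fit. Leaving out replicates gave Htr1a log2 fold changes from -0.086 to 0.0040 and Htr3a from -0.12 to 0.082, a change of sign in each. The median of the 9 genes ranged from -0.30 to -0.024, the number with an unadjusted p under 0.05 from 1 to 5, beside 5.93% to 11.4% of all tested genes, the number whose groups did not overlap from 2 to 7, beside 38.4% to 44.0% of all tested genes, and the receptor genes called from 0 to 1, the 1 being Htr2c. Htr2c ranged from -0.73 to -0.36 and was called without replicate 3, with no filter (-0.54) and with DESeq2 with the block and no filter (-0.54), each giving 1 called receptor gene. Every DESeq2 fit gave 1 receptor gene with an unadjusted p under 0.05, beside 2.50% to 8.10% of all tested genes. Over all genes the 5 calls became 2 with no replicate block, 384 with no filter, 36 and 133 with DESeq2 with and without the block, 38 and 116 with these and no filter, and from 9 to 36 without a replicate. In vehicle-labelled mice the longest transcript gave Htr2c 19.6 and Htr4 2.12 CPM per kilobase and the same order of genes. In SP-labelled mice 7 genes had another rank than in vehicle-labelled mice by all exons and 5 by the longest transcript. The cause of these changes was not tested, beyond the smaller number of mice without a replicate. The block rests on the replicate number, which the labels call a batch, and the pairs of mice did not deviate together. It changed no call of a receptor gene with the filter in place. With 3 mice in each group the median SE of a log2 fold change was 0.0906, and Htr1d, Htr2b and Htr3b had too few counts to pass the filter.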

Other observations

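Of the markers of cell types and regions listed here, edgeR called 0. All 5 CA3 markers and all 7 oligodendrocyte markers had positive log2 fold changes, with medians of 0.24 and 0.37, and 5 and 6 of them had an unadjusted p under 0.05. Summed oligodendrocyte markers, led by Mbp, were 4097, 4105 and 4596 CPM in vehicle-labelled mice and 5221, 6747 and 4709 CPM in SP-labelled mice. The 7 granule cell markers were all positive, with a median of 0.25 and 1 at an unadjusted p under 0.05, and of 6 CA1 markers, with a median of 0.15, 3 were higher and 1 lower at that threshold. Of 10 neocortical markers 9 were negative, with a median of -0.18 and 5 at that threshold, and their sum was 335, 302 and 320 CPM in vehicle-labelled mice and 216, 199 and 285 CPM in SP-labelled mice. The most abundant of these markers on average, Sulf1, had 73.5, 56.0 and 76.9 CPM in vehicle-labelled mice and 9.93, 42.0 and 57.6 CPM in SP-labelled mice. Like the summed choroid plexus markers, Sulf1 was lowest in SP 1, whereas the neocortical sum was lowest in SP 2. The part of Sulf1 in that sum was not tested. Of 8 striatal markers 5 were negative and 3 positive, with a median of -0.29 and 4 lower at that threshold. Of 6 tested markers of subiculum and retrosplenial cortex 4 were negative and 2 positive, with a median of -0.33 and 2 lower at that threshold. Microglial markers had a median of -0.04, with 0 of 5 at that threshold, PV and SST interneurons -0.12, with 0 of 6, and raphe markers 0.28, with 0 of 3. Medial habenula markers had a median of 0.41, with 1 of 5, Chrna3, at that threshold. In SP 2 Chrnb4 had 15.1 CPM and Chrna3 4.86 CPM, where the other libraries had at most 1.39 and 0.687 CPM, but the most abundant marker, Nwd2, had 40.2 CPM in SP 2 within its range of 37.1 to 44.5 CPM, Gpr151 had 0.498 CPM within 0.363 to 0.852 CPM, and Tac2 was lowest there, at 1.62 CPM. Over all lists but the receptors themselves, edgeR called 0 of 157 tested genes. DESeq2 called 2 with the replicate block, Cux2 and Mag, or 1.27% beside 0.211% of all tested genes, and 10 without it, or 6.37% beside 0.779%. The part of these markers in the receptor values was not tested.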
